A study of Mus musculus with 40 samples.

Results

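The genes described here are the 10 genes at the core of antigen presentation by MHC class I in the mouse, namely H2-K1, H2-D1, B2m, Tap1, Tap2, Tapbp, Psmb8, Psmb9, Psmb10 and Nlrc5. They were chosen by name from the 43430 genes of a table of RNA-seq counts, each matched 1 Ensembl identifier, and all 10 passed the filter on low counts that left 11853 genes for testing. The libraries came from bone marrow-derived macrophages (BMDMs), which are grown from marrow with the macrophage growth factor M-CSF. The mice were of the strain C57/Bl6 per the labels, and the NDI1 line had a mixed J and N background per the study's methods, with littermates of both sexes used. The WT mice carried Vav-iCre alone, and the NDI1 mice carried Vav-iCre together with a Rosa26 lox-stop-lox-NDI1 allele, so that both genotypes carried the Cre and the transgene was switched on in the hematopoietic lineage as a whole rather than in macrophages alone. NDI1 is a yeast NADH dehydrogenase that is not blocked by piericidin A, which inhibits complex I of the respiratory chain. BMDMs of 5 WT mice (numbers 449, 452, 453, 496 and 520) and 5 NDI1 mice (447, 460, 461, 503 and 521) were left untreated, given LPS at 100 ng/mL for 4 h, treated with 500 nM piericidin A, or pretreated with it during the 30 min that preceded LPS. This gave 8 groups of 5 libraries, 40 in all, with 6950748 to 13552070 counts per library. The comparisons ask whether loss of complex I activity alters the response to LPS, and whether restoring NADH oxidation with NDI1 alters that.

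MHC class I molecules show peptides of cytosolic proteins to CD8 T cells. The peptides are cut by the proteasome, in which Psmb8, Psmb9 and Psmb10 encode the catalytic subunits of the inducible form, the immunoproteasome. Tap1 and Tap2 encode both subunits of the pump that carries peptides into the endoplasmic reticulum, and Tapbp encodes tapasin, which holds the empty class I molecule at that pump. The molecule itself is a heavy chain, here H2-K1 or H2-D1, with the light chain beta-2 microglobulin (B2m). Nlrc5 is a transactivator that acts at the promoters of class I genes, and interferons and Toll-like receptor ligands are known to raise the whole set.

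Several of these genes lie together. In the coordinates of the deposited table (mm10), Tapbp (ENSMUSG00000024308) lies at chr17:33915899-33929288, H2-K1 (ENSMUSG00000061232) at chr17:33996017-34000333, Psmb9 (ENSMUSG00000096727) at chr17:34181988-34187764, Tap1 (ENSMUSG00000037321) at chr17:34187553-34197225, Psmb8 (ENSMUSG00000024338) at chr17:34197721-34201454, Tap2 (ENSMUSG00000024339) at chr17:34203527-34216321 and H2-D1 (ENSMUSG00000073411) at chr17:35262730-35267499. B2m (ENSMUSG00000060802) lies at chr2:122147686-122153083, Nlrc5 (ENSMUSG00000074151) at chr8:94472763-94527272 and Psmb10 (ENSMUSG00000031897) at chr8:105935728-105938392. Values were sums over all exons of a gene. Psmb9 and Tap1 run in opposite directions and share 212 exon bases, and Tapbp shares 24.9% of its exon bases with the antisense gene Gm19412, so that without a stated strand setting such reads cannot be told apart. H2-K1 and H2-D1 have close paralogs, and reads that fit several of them could have been left out of the counts or split between genes, so their levels are less certain.

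The sequences before the start sites of H2-K1, H2-D1 and B2m are shown because they carry the elements through which class I genes are known to be read together, and that of Tap1 is shown beside them (RefSeq, GRCm38.p6, 250 bases that end just before the start, on the gene's own strand). Capitals mark a kappa B consensus, an interferon-stimulated response element (GAANNGAAA or GAAANNGAAA), the X2 element (TGACG) and the Y element (CCAAT), each searched on both strands, so that an element can appear as its reverse complement. The sequence of Tap1 holds only the letters of X2 and Y, with Y first.
H2-K1, chr17:34000334-34000583, minus strand: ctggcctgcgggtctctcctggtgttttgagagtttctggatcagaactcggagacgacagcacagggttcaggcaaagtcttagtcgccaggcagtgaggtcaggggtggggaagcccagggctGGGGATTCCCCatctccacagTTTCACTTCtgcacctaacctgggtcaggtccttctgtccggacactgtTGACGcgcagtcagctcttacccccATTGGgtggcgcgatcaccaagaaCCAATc
H2-D1, chr17:35262844-35263093, plus strand: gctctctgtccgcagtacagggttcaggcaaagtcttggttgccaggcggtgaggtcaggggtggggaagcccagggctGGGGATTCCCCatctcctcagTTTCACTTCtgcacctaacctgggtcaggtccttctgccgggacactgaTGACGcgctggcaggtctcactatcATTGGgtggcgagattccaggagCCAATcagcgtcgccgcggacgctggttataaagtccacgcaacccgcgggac
B2m, chr2:122147437-122147686, plus strand: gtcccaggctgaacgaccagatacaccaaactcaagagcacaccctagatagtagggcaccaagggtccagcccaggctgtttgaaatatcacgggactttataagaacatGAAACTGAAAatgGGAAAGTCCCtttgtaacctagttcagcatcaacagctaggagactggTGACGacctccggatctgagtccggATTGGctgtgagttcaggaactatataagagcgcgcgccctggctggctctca
Tap1, chr17:34187306-34187555, plus strand: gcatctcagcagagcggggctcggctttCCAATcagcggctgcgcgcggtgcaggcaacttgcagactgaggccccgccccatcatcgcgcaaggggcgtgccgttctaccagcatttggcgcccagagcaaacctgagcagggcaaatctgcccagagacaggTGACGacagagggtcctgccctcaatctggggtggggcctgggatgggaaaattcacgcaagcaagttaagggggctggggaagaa

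In H2-K1 and H2-D1 the elements stood in the same order and at the same spacing, with 21 bases from the first letter of the kappa B consensus to that of the response element, 49 from there to X2 and 25 from X2 to the next Y. B2m also had 25 bases from X2 to Y, but its response element lay before its kappa B consensus. Windows of 300 bases, from 250 before to 50 after the start, were listed for 8 of the genes, all but Tap2 and Nlrc5. A kappa B consensus was found in the windows of H2-K1, H2-D1 and B2m, against 8.46% of the 32851 windows in the table. GAANNGAAA was found in those of H2-K1 and H2-D1 (7.52% of all windows), and GAAANNGAAA in that of B2m (3.44%). TGACG was found in 5 of the 8 windows, those of H2-K1, H2-D1, B2m, Tap1 and Psmb9 (20.8% of all windows), and CCAAT in the same 5 and that of Tapbp (37.4%). The windows of Tap1 and Psmb9 share 275 bases, since their starts lie 226 bases apart in opposite directions, and therefore count the same letters. A gamma-activated site (TTCNNNGAA) was found in the window of Psmb8 only (8.3% of all windows), and none of these letters in that of Psmb10. The RefSeq start of Tapbp lies 3579 bases into the gene as the table gives it, so its window need not be the one in use in these cells. A match gives only that these letters are present.

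The libraries of WT mouse 496 and NDI1 mouse 503 stood apart from the others. They were 8 of the 8 libraries with the highest scores on the second principal component, and the summed level of the 5 neutrophil markers was 422 to 2627 CPM (counts scaled to a common library size with TMM factors) in mouse 496 and 401 to 807 CPM in mouse 503, against 11.8 to 166 CPM in the other 32 libraries. The sums of the 4 B cell and the 4 fibroblast markers were also highest in the LPS and piericidin A library of mouse 496, at 13.3 and 104 CPM, as was that of the 4 dendritic cell markers, at 45.0 CPM. The 5 T cell markers summed to 2.23 to 14.4 CPM over all libraries. The 3 NK cell and 3 erythroid markers stayed under 1 CPM in every library, with Ncr1 and Gzma at 0. The 7 macrophage markers summed to 6318 to 12811 CPM over the 40 libraries, and each was detected in every one. Calls for piericidin A in WT, alone or with LPS, are also given without these mice. Fits with the mouse as a replicate block, ratios, correlations and coefficients of variation were made only with them included.

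LPS raised all 10 genes in WT and all 10 in NDI1 BMDMs, where 31.5% of the tested genes rose in WT and 31.5% in NDI1 (edgeR's quasi-likelihood test, adjusted p under 0.05). The order of the rises ran from the transactivator and the pump, through the immunoproteasome and tapasin, to the class I molecule itself. The median log2 fold change over the 10 genes was 2.33 in WT and 2.35 in NDI1, beside a median of −0.01 over all tested genes in each genotype. The summed dendritic cell markers were also higher with LPS than without treatment in 10 of 10 mice, at 6.70 to 45.0 CPM in the 20 libraries with LPS and 0.897 to 10.4 CPM in the 20 without, as were the summed neutrophil markers (32.4 to 2627 against 11.8 to 1423 CPM) and macrophage markers (8510 to 12811 against 6318 to 8963 CPM). Their part in the rise of the 10 genes was not tested. These are RNA levels of whole cultures, in which fewer cells of a type and less RNA per cell cannot be told apart.

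Nlrc5 rose most. In WT it stood at 29.9, 22.7, 17.0, 34.3 and 20.6 CPM without treatment and at 427, 344, 228, 436 and 322 CPM with LPS in mice 449, 452, 453, 496 and 520. In NDI1 it stood at 21.7, 22.1, 22.1, 40.4 and 20.1 CPM without treatment and at 298, 377, 452, 442 and 250.5 CPM with LPS in mice 447, 460, 461, 503 and 521. Every library with LPS lay far above every untreated one, and mouse 503 was highest among untreated NDI1 libraries. LPS raised it in WT by 3.82 ± 0.28 on the log2 scale (SE, n = 5 mice a group; edgeR adjusted p = 1.8e-14), and NDI1 BMDMs gave 3.85 ± 0.28 (adjusted p = 1.71e-14).

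Of the pump, Tap1 rose more than Tap2. Tap1 stood at 107, 105, 83.6, 127 and 80.3 CPM in untreated WT and at 1232, 1083, 851, 1446 and 1061 CPM with LPS, and in NDI1 at 85.2, 122, 76.1, 159 and 79.3 CPM without and 983, 1183, 1077, 1414 and 1047 CPM with LPS. The groups with and without LPS did not overlap in either genotype. Its log2 fold change with LPS was 3.495 ± 0.20 for WT and 3.45 ± 0.20 for NDI1 mice. Tap2 stood at 55.5, 58.7, 58.8, 55.6 and 54.7 CPM in untreated WT, the narrowest spread of the 10 genes in that group, and at 406, 335, 278, 438 and 367 CPM with LPS, a log2 fold change of 2.69 ± 0.15. In NDI1 it went from 48.6 to 66.6 CPM without treatment to 318 to 419 CPM with LPS, a log2 fold change of 2.75 ± 0.15. Per kb of exon, the level of Tap1 was 1.23 ± 0.25 times that of Tap2 in untreated WT (SD, n = 5) and 2.14 ± 0.11 times with LPS, and 1.26 ± 0.25 and 2.10 ± 0.18 times in NDI1.

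The 3 immunoproteasome genes rose together. The log2 fold changes in WT were 2.49 ± 0.18 for Psmb9, 2.45 ± 0.18 for Psmb10 and 2.21 ± 0.15 for Psmb8, and those in NDI1 were 2.58 ± 0.18, 2.48 ± 0.18 and 2.23 ± 0.15. Psmb10 stood at 64.7 to 93.2 CPM in untreated WT and at 342 to 522.5 CPM with LPS, Psmb8 at 82.9 to 106 and 313 to 506 CPM, and Psmb9 at 25.4 to 32.0 and 126.5 to 202 CPM. None of these ranges overlapped. Tapbp, for tapasin, went from 402 to 544.5 CPM to 1447 to 2277 CPM in WT, a log2 fold change of 2.04 ± 0.14, against 2.09 ± 0.14 in NDI1.

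The class I molecule rose least. B2m stood at 2379, 2152, 2060, 2304 and 1960 CPM in untreated WT and at 5200, 4393, 3338, 4735 and 3724 CPM with LPS, a log2 fold change of 0.98 ± 0.14. H2-K1 stood at 1862, 1620, 1334, 1842 and 1438 CPM and at 3961, 3094, 2121, 3814 and 2658 CPM, a log2 fold change of 0.95 ± 0.16. H2-D1 stood at 4000, 4231, 4236, 3763 and 3559 CPM and at 6757, 6311, 5410, 6246 and 5318 CPM, a log2 fold change of 0.60 ± 0.12. No untreated library reached a library with LPS for any of the 3 genes. In NDI1 the log2 fold changes were 0.93 ± 0.14, 1.02 ± 0.16 and 0.65 ± 0.12. With upper quartile in place of TMM factors the median over all genes moved by −0.32 in WT and −0.33 in NDI1, which turned the calls over all genes from 3738 higher and 3673 lower to 2606 and 5370 in WT and from 3731 and 3703 to 2585 and 5425 in NDI1. All 10 genes were still called as higher in both genotypes, and H2-D1, the least raised, then had a log2 fold change of 0.28 ± 0.12 (edgeR adjusted p = 0.0477) in WT. The TMM factors were 0.70 to 0.88 with LPS alone and 1.25 to 1.37 without treatment, and no fit was run without such factors. The small rises of B2m, H2-K1 and H2-D1 therefore depend on the scaling.

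**Figure D1:**
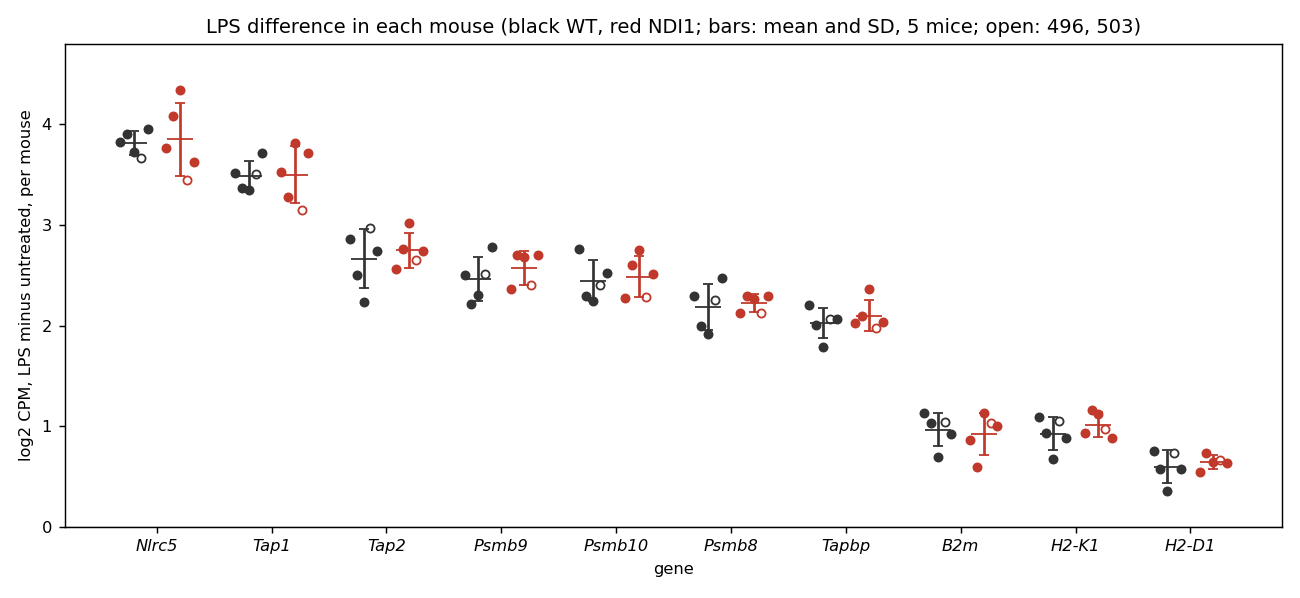
The difference in log2 CPM between the LPS and the untreated library of each mouse (y axis) for the 10 genes (x axis), with the mean and SD over 5 mice. All 100 points lie above 0, and they run from 3.45 to 4.34 for Nlrc5 in NDI1 down to 0.35 to 0.76 for H2-D1 in WT.

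No difference in the size of the rise between the genotypes was called. None of the 10 genes was called for a difference in the LPS effect between NDI1 and WT, nor was any of the 11853 genes (0% called; 63 at an unadjusted p under 0.05 with edgeR, and 0 called with DESeq2). The differences, NDI1 minus WT, ran from −0.05 for B2m to 0.10 for Psmb9 on the log2 scale. For Psmb9 the 95% interval ran from −0.37 to 0.56, and for Nlrc5, the least precise, from −0.68 to 0.73, so that a difference in the LPS effect of that size in either direction was not detectable here.

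**Figure D2:**
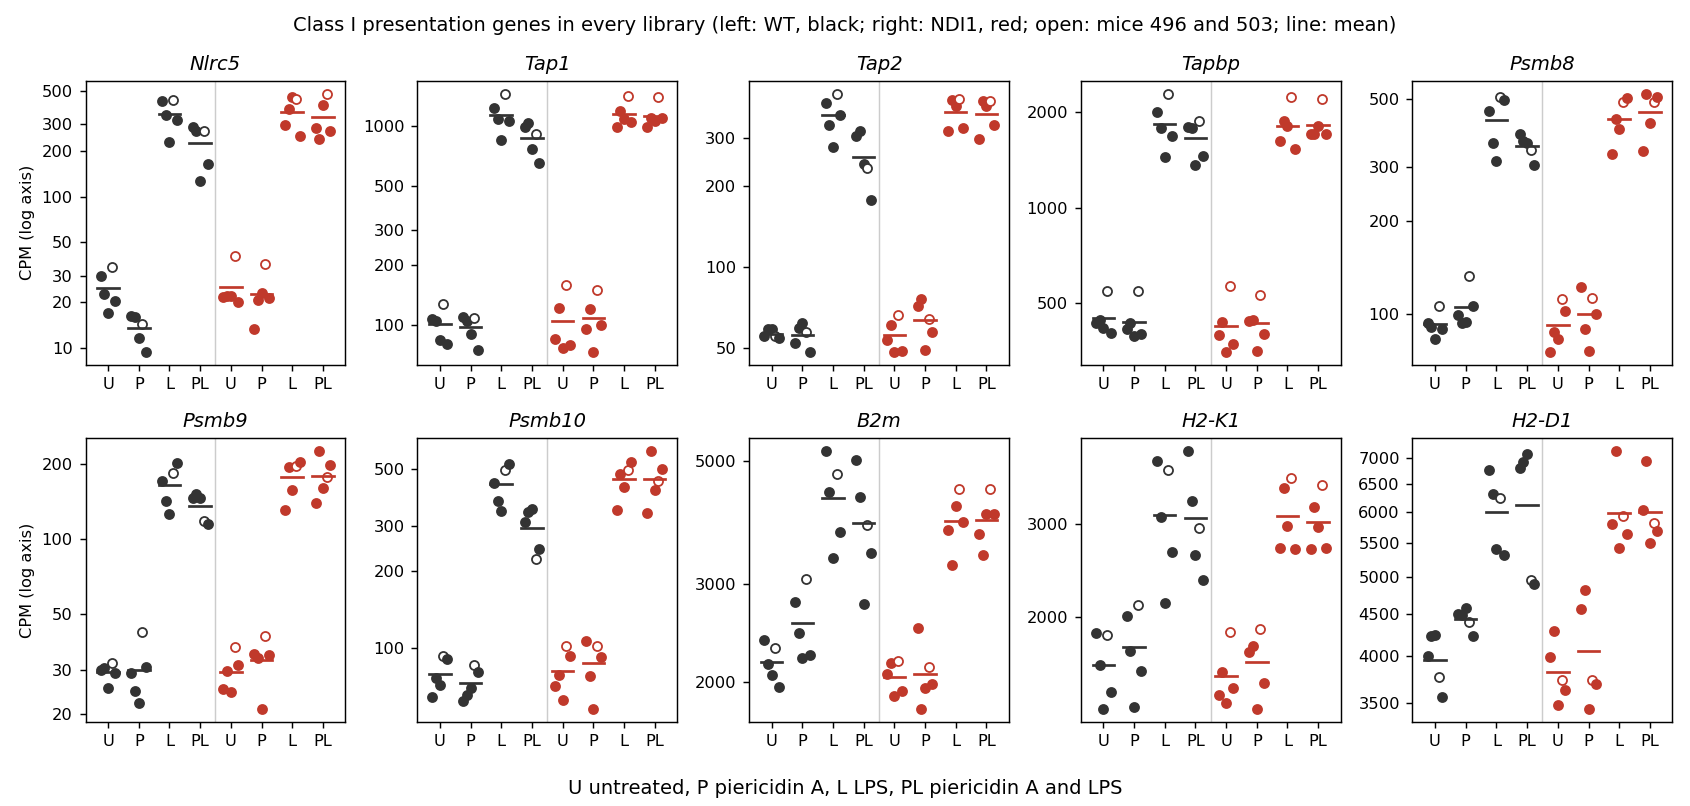
CPM on a log axis of each of the 10 genes in every library, for untreated (U), piericidin A (P), LPS (L) and piericidin A with LPS (PL) in WT (black) and NDI1 (red), with a line at the mean and open points for mice 496 and 503. Within each genotype the L points stand above the U points for every gene, while some B2m points with P in WT lie above the lowest PL point, and the lowest PL points of Tap2 and Psmb10 in WT belong to mice 520 and 496.

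The levels themselves ran in nearly the opposite order. Levels were compared between genes per kb of the merged exons of the GENCODE vM21 annotation (GRCm38), which overstates the length of a gene whose cells use short transcripts. In untreated WT, B2m stood at 2524 ± 200 CPM per kb (SD, n = 5), H2-D1 at 1535 ± 115, H2-K1 at 551 ± 80.3, Tapbp at 123.5 ± 15.4, Psmb10 at 46.5 ± 7.19, Psmb8 at 27.3 ± 2.49, Tap1 at 18.4 ± 3.51, Tap2 at 15.0 ± 0.51, Psmb9 at 8.04 ± 0.67 and Nlrc5 at 2.93 ± 0.83. Only Tap1 and Tap2 overlapped among neighbours in this order, and Tap1 was above Tap2 in 4 of 5 libraries. With LPS the order in WT was B2m, H2-D1, H2-K1, Tapbp, Psmb10, Tap1, Psmb8, Tap2, Psmb9 and Nlrc5, from 4974 ± 874 down to 41.4 ± 10.0 CPM per kb, so that Tap1 had passed Psmb8. The neighbours Psmb10 and Tap1, Psmb8 and Tap2, and Psmb9 and Nlrc5 then overlapped in their ranges, and Psmb9 was above Nlrc5 in only 2 of 5 libraries. The order in NDI1 was the same as in WT in each of these 2 conditions.

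Each immunoproteasome subunit takes the place of a constitutive one when new proteasomes are built, Psmb8 that of Psmb5, Psmb9 that of Psmb6 and Psmb10 that of Psmb7. The ratio of levels per kb of Psmb8 to Psmb5 was 0.53 ± 0.11 in untreated WT (SD, n = 5) and 1.93 ± 0.32 with LPS. That of Psmb10 to Psmb7 went from 2.16 ± 0.33 to 7.19 ± 0.61, and that of Psmb9 to Psmb6 from 0.13 ± 0.03 to 0.37 ± 0.06. The ratios with and without LPS did not overlap for any of the 3 pairs. In NDI1 the ratios with LPS were 2.00 ± 0.26, 7.97 ± 1.26 and 0.39 ± 0.06. With piericidin A and LPS in WT they were 1.68 ± 0.44, 5.05 ± 1.27 and 0.28 ± 0.07, and the ranges of all 3 pairs overlapped those with LPS alone except for Psmb10 to Psmb7, at 3.55 to 6.26 against 6.43 to 8.12. That ratio was also lower at rest in WT with piericidin A, at 1.56 ± 0.14 against 2.16 ± 0.33 untreated, without overlap. Psmb9 to Psmb6 was 0.09 ± 0.02 against 0.13 ± 0.03 at rest, with overlap, and Psmb8 to Psmb5 was 0.53 in both. Absolute ratios depend on the exon lengths used, and the changes between conditions do not.

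**Figure D3:**
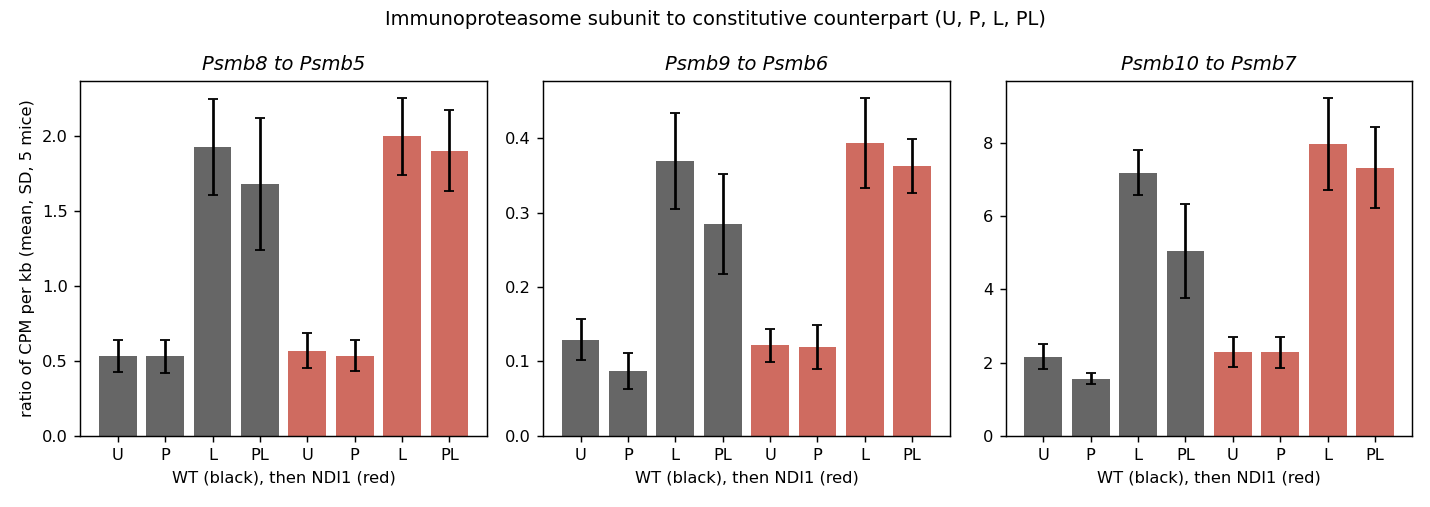
Ratio of CPM per kb of each immunoproteasome subunit to its constitutive counterpart (y axis) in the 8 groups (x axis; U, P, L and PL in WT, then in NDI1), as mean and SD of 5 mice. All 3 ratios are higher with LPS, and the ratio of Psmb10 to Psmb7 in WT is 7.19 with LPS and 5.05 with piericidin A and LPS.

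In resting WT BMDMs, piericidin A lowered 1 of the 10 genes, Nlrc5, where 7.05% of tested genes fell and 7.79% rose. Nlrc5 stood at 29.9, 22.7, 17.0, 34.3 and 20.6 CPM without and 16.3, 16.0, 11.7, 14.4 and 9.43 CPM with piericidin A in mice 449, 452, 453, 496 and 520. It was lower in each of the 5 mice, and every value with piericidin A was below every untreated one. The log2 fold change was −0.87 ± 0.26 (edgeR adjusted p = 0.0214), and −0.85 ± 0.14 (adjusted p = 2.04e-05) with the mouse as a replicate block. Without mouse 449, 496 or 520, or without both mice that stood apart, it kept its direction at −0.87, −0.75, −0.83 and −0.75 with adjusted p = 0.0584, 0.114, 0.0774 and 0.0591. The fall of Nlrc5 was −1.23 on the log2 scale in mouse 496, whose summed neutrophil markers went from 422 to 1423 CPM with piericidin A. It was −1.11 in mouse 520 (markers 44.9 to 64.4 CPM) and −0.87 in mouse 449 (21.2 to 26.4 CPM). In mouse 453 it was −0.537 (27.3 to 46.5 CPM) and in mouse 452 −0.505 (86.7 to 98.7 CPM). The summed markers were thus higher with piericidin A in each of the 5 mice. Their part in this result was not tested.

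The other 9 genes were not called in resting WT BMDMs. Their log2 fold changes lay between −0.13 for Psmb10 and 0.23 for B2m, whose 95% interval ran from −0.03 to 0.49. B2m stood at 2781, 2448, 2213, 3064 and 2234 CPM with piericidin A and was higher in 5 of 5 mice, and with the replicate block it was also called, at 0.22 ± 0.09 (edgeR adjusted p = 0.0498), so that 2 of the 10 genes were called there against 34.2% of all genes. H2-D1, H2-K1 and Psmb8 were also higher in 5 of 5 mice, by 0.09 to 0.25, 0.01 to 0.19 and 0.04 to 0.32 on the log2 scale, Psmb10 was lower in 5 of 5, by −0.05 to −0.22, and none of the 4 was called.

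With LPS, piericidin A lowered 2 of the 10 genes in WT, Tap2 and Psmb10, where 8.92% of tested genes fell and 7.81% rose. Tap2 stood at 406, 335, 278, 438 and 367 CPM with LPS and at 306, 318, 241, 233 and 177 CPM with piericidin A and LPS in mice 449, 452, 453, 496 and 520. It was lower in 5 of 5 mice, most in mice 520 and 496, and the ranges overlapped. The log2 fold change was −0.51 ± 0.14 (edgeR adjusted p = 0.00908). Psmb10 stood at 440, 376, 342, 495 and 522.5 CPM with LPS and at 311, 340, 348.5, 222 and 243 CPM with both, so that it was lower in 4 of 5 mice and again most in mice 496 and 520. Its log2 fold change was −0.57 ± 0.17 (adjusted p = 0.0166).

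These 2 calls rested on 2 mice. Without mouse 496 the log2 fold changes of Tap2 and Psmb10 were −0.41 (edgeR adjusted p = 0.099) and −0.43 (adjusted p = 0.15), without mouse 520 they were −0.41 (adjusted p = 0.0872) and −0.43 (adjusted p = 0.159), and without both mice that stood apart they were −0.41 (adjusted p = 0.102) and −0.43 (adjusted p = 0.15). In a fit of the compared libraries alone they were −0.46 (adjusted p = 0.0926) and −0.51 (adjusted p = 0.072). All 10 genes were lower with piericidin A and LPS than with LPS in mouse 496 and in mouse 520, with medians of −0.60 and −0.70 on the log2 scale, against 8, 6 and 5 of the 10 genes in mice 449, 452 and 453, with medians of −0.24, −0.02 and −0.03. The summed neutrophil markers were higher with both agents than with LPS in 5 of 5 mice, at 45.1 and 93.7 CPM in mouse 449, 116 and 166 CPM in mouse 452, 55.0 and 121 CPM in mouse 453, 992 and 2627 CPM in mouse 496 and 69.3 and 157 CPM in mouse 520. Their part in these differences was not tested.

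With the mouse as a replicate block, 4 of the 10 genes were called as lower by piericidin A with LPS in WT, where 18.9% of all genes were. Tap2 was then at −0.53 ± 0.12 (edgeR adjusted p = 0.000796), Psmb10 at −0.55 ± 0.15 (adjusted p = 0.00485), Tap1 at −0.39 ± 0.10 (adjusted p = 0.00266) and Nlrc5 at −0.68 ± 0.12 (adjusted p = 0.000102). Tap1 stood at 982, 1030, 769, 910 and 653.5 CPM with both agents and Nlrc5 at 290, 272, 126, 272 and 164 CPM, each below the same mouse's value with LPS in 5 of 5 mice. Without the block neither was called, at −0.38 ± 0.18 (adjusted p = 0.15) and −0.64 ± 0.25 (adjusted p = 0.0712).

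The heavy chains did not share this direction. H2-K1 and H2-D1 differed by −0.02 and 0.03 on the log2 scale with piericidin A under LPS, with 95% intervals of −0.34 to 0.29 and −0.20 to 0.26, and each was higher in 3 and lower in 2 of 5 mice. H2-D1 stood at 6804, 6906, 7074, 4957 and 4901 CPM, and the values of mice 496 and 520 lay apart below the others. B2m at −0.15 and Tapbp at −0.16 were each lower in 5 of 5 mice, Psmb8 at −0.28 and Psmb9 at −0.28 in 3 of 5, and none of the 4 was called. The median over the 10 genes was −0.28, beside −0.02 over all tested genes.

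The LPS effect itself, taken as the rise with piericidin A minus the rise without it in WT, was called as changed for none of the 10 genes, where 4.75% of all genes were. It was smaller for 9 of the 10, by up to −0.50 ± 0.20 on the log2 scale for Tap2 (edgeR adjusted p = 0.147), and larger for Nlrc5 alone, at 0.23 ± 0.36. With the replicate block Tap2 (−0.51 ± 0.17, adjusted p = 0.0337) and B2m (−0.37 ± 0.12, adjusted p = 0.0353) were called as smaller, where 9.48% of all genes were.

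**Figure D4:**
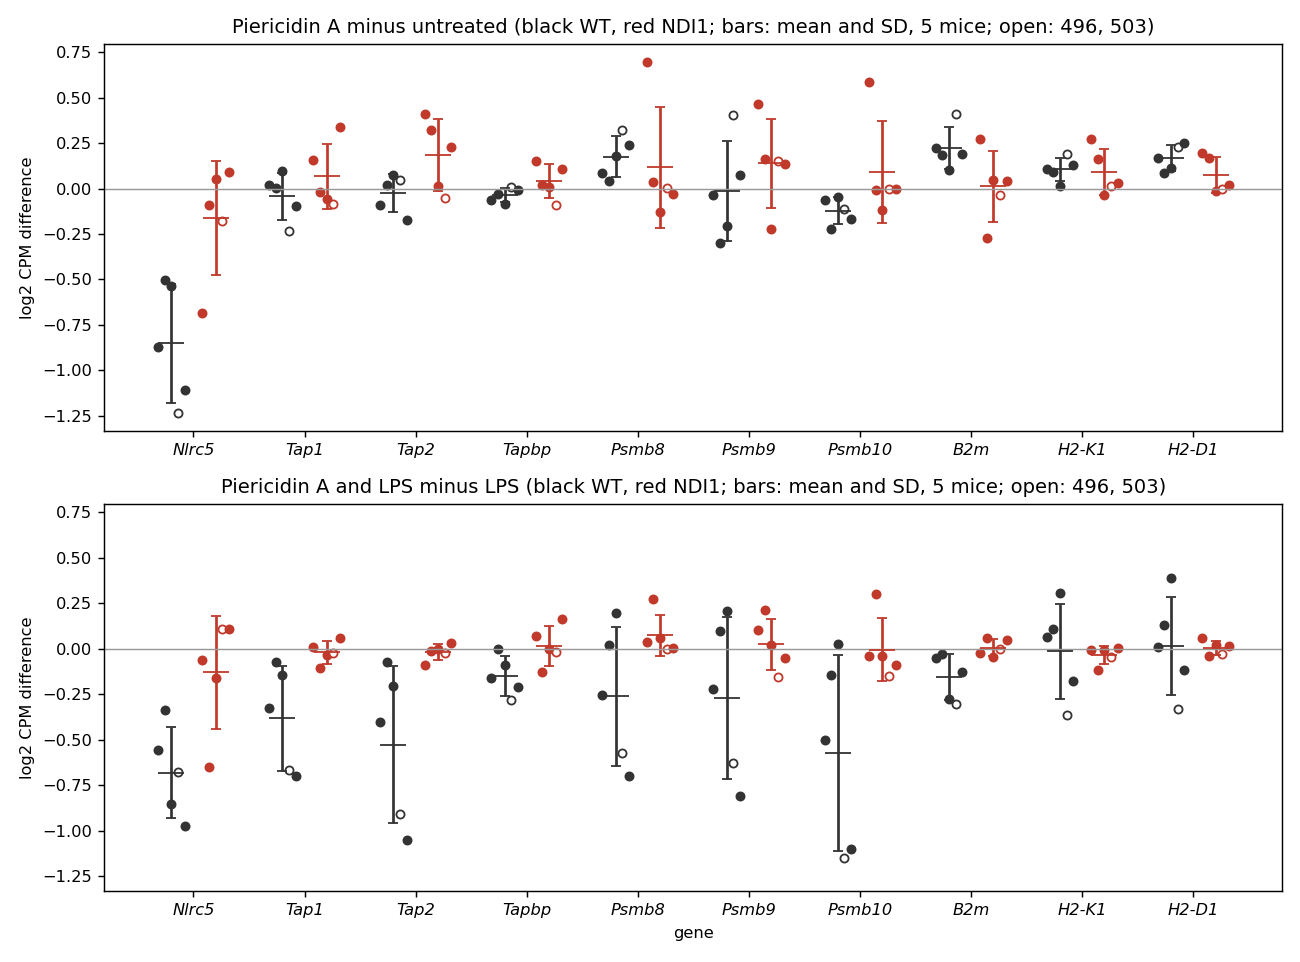
Difference in log2 CPM made by piericidin A in each mouse (y axis) for the 10 genes (x axis), without LPS (top) and with LPS (bottom), with mean and SD of 5 WT (black) or 5 NDI1 (red) mice and open points for mice 496 and 503. The Nlrc5 points of all 5 WT mice lie below 0 in both panels, and the NDI1 means lie between −0.16 and 0.18.

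In NDI1 BMDMs, piericidin A was not called to change any of the 10 genes, alone or with LPS, and 0% of all genes were called in either comparison (58 and 127 genes at an unadjusted p under 0.05 with edgeR, and 0 called with DESeq2). The log2 fold changes lay between −0.15 for Nlrc5 and 0.19 for Tap2 without LPS and between −0.12 for Nlrc5 and 0.08 for Psmb8 with LPS. With LPS, Tap2 stood at 318, 416, 395, 419 and 327.5 CPM and with both agents at 299, 413.5, 394, 411 and 335 CPM in mice 447, 460, 461, 503 and 521, and each mouse's pair of values nearly coincided. The mean of its differences was −0.02 with an SD of 0.05 on the log2 scale, against −0.53 with an SD of 0.43 in WT. Psmb10 stood at 346, 477, 424.5, 496 and 531 CPM with LPS and at 336, 587, 413, 447 and 499 CPM with both. Nlrc5 stood at 298, 377, 452, 442 and 250.5 CPM with LPS and at 285, 241, 405, 476 and 270 CPM with both, and mouse 460 alone showed a fall like those in WT, of −0.65. Without LPS, Nlrc5 differed by −0.69 in mouse 447, within the range of the WT mice, and by −0.18 to 0.09 in the other NDI1 mice.

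Whether the piericidin A effect differed between the genotypes was tested as an interaction. With LPS, none of the 10 genes was called, where 0.979% of all genes were. The differences, NDI1 minus WT, were 0.57 ± 0.24 for Psmb10 (edgeR adjusted p = 0.252), 0.53 ± 0.35 for Nlrc5 (adjusted p = 0.547), 0.50 ± 0.20 for Tap2 (adjusted p = 0.223), 0.36 ± 0.26 for Tap1 and 0.36 ± 0.20 for Psmb8, and they lay between −0.03 and 0.31 for the other 5. With the replicate block Tap2 (0.51 ± 0.17, adjusted p = 0.0448) and Nlrc5 (0.54 ± 0.17, adjusted p = 0.0459) were called, where 4.7% of all genes were called as higher. Without LPS, none of the 10 was called, where 1.27% of all genes were, and Nlrc5 had the largest difference at 0.73 ± 0.37 (adjusted p = 0.465). With the block Nlrc5 was called at 0.70 ± 0.19 (adjusted p = 0.0198), where 3.81% of all genes were called as higher.

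Between the genotypes under the same treatment, none of the 10 genes was called without treatment or with LPS, and 0% of all genes were called in the first and 0% in the second (39 and 141 at an unadjusted p under 0.05 with edgeR, and 0 called with DESeq2). The log2 differences, NDI1 minus WT, lay between −0.09 and 0.05 without treatment and between −0.14 and 0.10 with LPS. With piericidin A none of the 10 was called either, where 7.8% of all genes were. Nlrc5 stood at 13.4, 20.8, 22.9, 35.7 and 21.4 CPM in NDI1 and at 9.43 to 16.3 CPM in WT, a difference of 0.75 ± 0.26 (edgeR adjusted p = 0.0728), and mouse 447 alone of the NDI1 mice lay within the WT range. With piericidin A and LPS, Tap2 (0.54 ± 0.14, adjusted p = 0.00901) and Psmb10 (0.64 ± 0.17, adjusted p = 0.0104) were higher in NDI1, where 5.86% of all genes were higher. Without both mice that stood apart they were 0.47 (adjusted p = 0.077) and 0.57 (adjusted p = 0.0747), without mouse 496 they were 0.51 (adjusted p = 0.0318) and 0.55 (adjusted p = 0.0506), without mouse 520 they were 0.43 (adjusted p = 0.0569) and 0.58 (adjusted p = 0.0473), and in a fit of the compared libraries alone 0.51 (adjusted p = 0.0955) and 0.61 (adjusted p = 0.0755). The comparisons that involve WT with piericidin A and LPS, namely that with LPS alone, the interaction, the change of the LPS effect and this one, share those libraries, so their values are not independent of each other.

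The wider pathway was taken as 5 lists of 40 genes, of which 36 were tested. Among 11 other class I and class I-like heavy chains, LPS raised 9 in WT and 9 in NDI1, lowered 1 and left 1 not called, where 31.5% of all genes rose in each genotype and 31% fell in WT and 31.2% in NDI1. H2-T22 rose by 3.12 ± 0.17 on the log2 scale in WT, H2-Q6 by 1.73 ± 0.27, H2-Q4 by 1.46 ± 0.20 and H2-T23, which encodes the ligand Qa-1 of an inhibitory receptor on NK cells, by 1.42 ± 0.15. Mr1, which presents microbial vitamin metabolites, fell by 1.02 in WT and by 0.91 in NDI1, and is named after its value was seen as the one that fell. These genes are close in sequence to each other, so single values are less certain, and H2-T22 shares 29.4% of its exon bases with an antisense gene.

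Of 5 genes for loading and trimming of peptides, Tapbpl, a relative of tapasin, rose by 1.74 ± 0.14 in WT, and Erap1, which trims peptides in the endoplasmic reticulum, by 0.50 ± 0.14. The general chaperones Calr, Canx and Pdia3 were not called, at 0.08, 0.20 and 0.23. With the replicate block Canx (0.20 ± 0.07, edgeR adjusted p = 0.00948) and Pdia3 (0.24 ± 0.07, adjusted p = 0.00357) were called in WT, where 36.4% of all genes rose. Of the constitutive catalytic subunits Psmb6 (0.94 ± 0.15) and Psmb7 (0.71 ± 0.14) rose and Psmb5 (0.32 ± 0.19, edgeR adjusted p = 0.143) was called only with the block, at 0.32 ± 0.12 (adjusted p = 0.0178) in WT and 0.40 ± 0.12 (adjusted p = 0.00386) in NDI1, where 36.4% of all genes rose. All 5 genes for activators and assembly rose, among them Psme2 (2.50 ± 0.20) and Psme1 (1.52 ± 0.16), the 2 subunits of the activator PA28, Psme4 (0.79 ± 0.14) and Pomp (0.90 ± 0.11), the proteasome maturation factor. Without the block, 2 of the 5, 2 of the 3 and 5 of the 5 genes of these 3 lists were called as higher in WT, and the same numbers in NDI1. Beside them 31.5% of all genes rose in each genotype, so the count of loading genes lay near that share.

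Of 12 regulators, LPS raised 7, lowered 2 and left 3 not called in each genotype, beside 31.5% of all genes raised in both and 31% (WT) and 31.2% (NDI1) lowered. Irf1, Stat2 and Irf2, factors of the interferon response, rose by 3.06 ± 0.28, 2.97 ± 0.20 and 1.70 ± 0.13 in WT. Rfxap and Rfxank, which encode parts of the RFX complex at the X element, fell by 1.23 and 1.41, and are named after their values were seen as the 2 that fell, while Rfx5, also of that complex, rose by 1.02 ± 0.19.

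In resting WT BMDMs piericidin A raised Psmb6 (0.59 ± 0.15, edgeR adjusted p = 0.00687) and lowered 3 of the 12 regulators, Stat2 (−0.64 ± 0.19, adjusted p = 0.0198), Rfx5 (−0.56 ± 0.19, adjusted p = 0.0439) and Irf2 (−0.45 ± 0.13, adjusted p = 0.0161), where 7.79% of all genes rose and 7.05% fell. With the replicate block 7 of the 12 regulators and 1 of the 5 activator and assembly genes were lower (16.9% of all genes), and 2 of the 3 constitutive subunits and 1 of the 11 heavy chains were higher (17.2% of all genes). Among the genes it lowered with LPS were Nfya, a part of the NF-Y factor that binds CCAAT (−0.38 ± 0.11, adjusted p = 0.0163), H2-T22 (−0.56 ± 0.15, adjusted p = 0.00983), Tapbpl (−0.46 ± 0.14, adjusted p = 0.016) and Pomp (−0.44 ± 0.11, adjusted p = 0.00674), each in 5 of 5 mice, where 8.92% of all genes fell. With the block 4 of the 11 heavy chains, 1 of the 5 loading genes, 4 of the 5 activator and assembly genes and 6 of the 12 regulators were lower (18.9% of all genes), while 2 heavy chains and 1 regulator, Irf1, were higher (15.6% of all genes). H2-T22 also had a smaller LPS effect with piericidin A (−0.81 ± 0.22, adjusted p = 0.0222). With the block 3 heavy chains, 1 constitutive subunit and 1 assembly gene had a smaller LPS effect (9.48% of all genes). Irf1 was at 0.71 ± 0.26 with piericidin A under LPS (adjusted p = 0.0571) and at 0.68 ± 0.19 (adjusted p = 0.00736) with the block, and stood at 790 ± 140 CPM with LPS and 1291 ± 216 CPM with both (SD, n = 5). Nfya, H2-T22, Tapbpl and Pomp were also higher in NDI1 than in WT with both agents, by 0.34 to 0.53 on the log2 scale, and that comparison shares the WT libraries. For the interaction none of the 36 genes was called without the block, and with it H2-T22 (0.54 ± 0.17, adjusted p = 0.037) and Pomp (0.46 ± 0.14, adjusted p = 0.0382) were among those called with LPS and Irf2 (0.43 ± 0.14, adjusted p = 0.0426) was without LPS. Without mouse 496 none of the genes of these lists was called for piericidin A in WT with or without LPS, and without mouse 520 only Psmb6 at rest was. Without both mice that stood apart none of these 4 genes was called with LPS, and no gene of the lists at rest.

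Within groups the 10 genes did not all move together. Over the deviations of log2 CPM from the group mean in the 40 libraries, which share their mice, the 45 pairs of genes had a median Pearson r of 0.54, with 26 pairs above 0.5. Psmb8, Psmb9 and Psmb10 deviated together most closely, with r of 0.90 for Psmb8 and Psmb9, 0.87 for Psmb8 and Psmb10 and 0.86 for Psmb9 and Psmb10. Tap1 and Tapbp had r of 0.88, Tapbp and H2-K1 of 0.82 and Tapbp and Nlrc5 of 0.76. Nlrc5 had r of only 0.25, 0.21 and 0.02 with Psmb8, Psmb9 and Psmb10, and r of −0.10 with H2-D1, the 1 pair below 0. Tap1 and Psmb9, which share a promoter window and 212 exon bases, had r of 0.59. By the median coefficient of variation over the 8 groups, Nlrc5 varied most between mice of a group, at 29.2% (21.7 to 35.3%), though not in every group. H2-D1 varied least by that median, at 9.8% (3.0 to 17.9%).

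**Figure D5:**
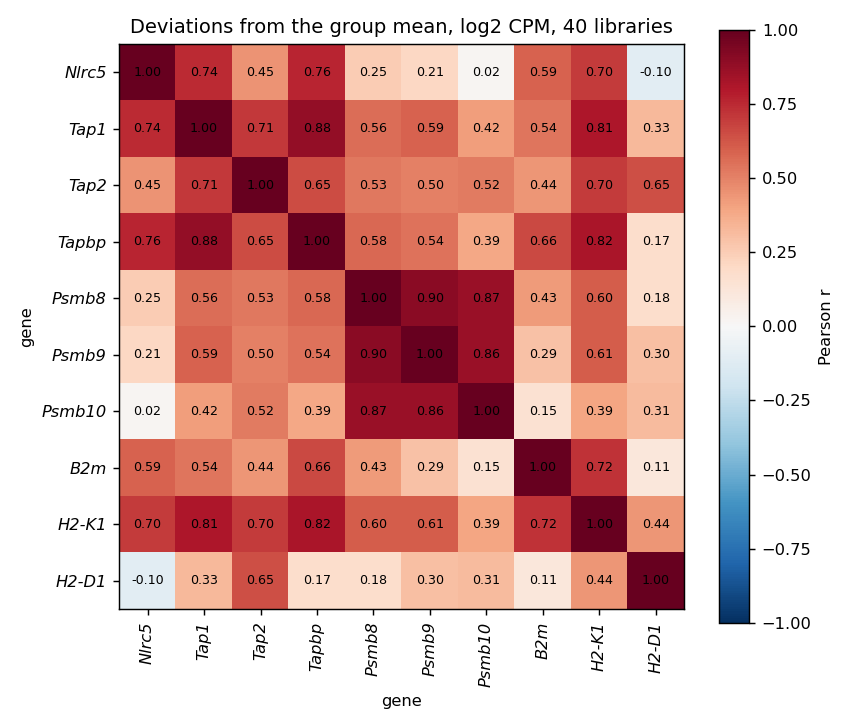
Pearson r between the 10 genes (both axes) of the deviations of log2 CPM from the group mean over 40 libraries, with r printed in each cell and blue to red from −1 to 1. Psmb8, Psmb9 and Psmb10 form a block at 0.86 to 0.90, and Nlrc5 with H2-D1 is at −0.10.

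The genes outside the 10 and the 5 lists whose pattern over the 40 libraries was most like the mean of the 10 scaled genes were Phc2, Rmdn3, Rnf31, Tnfrsf1a and Phf11b, with Pearson r of 0.991 to 0.994. These r rest mainly on the step between libraries with and without LPS, and within groups they were 0.76 to 0.84. Phc2, which encodes a Polycomb protein, stood at 71.7 ± 7.29 CPM in untreated WT (SD, n = 5), at 356.5 ± 41.2 CPM with LPS and at 267 ± 41.4 CPM with piericidin A and LPS. Rnf31 encodes a subunit of the linear ubiquitin ligase and shares 123 exon bases with Irf9, and Tnfrsf1a encodes a receptor of TNF.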

How the data were processed

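RNA was polyA selected and sequenced on a NextSeq 500. The authors demultiplexed reads with bcl2fastq, used Trimmomatic for trimming, STAR for alignment to the mm10 genome, and HTSeq to count reads over exons (per the labels and the study's methods). The strand setting and the annotation release are not given in the sources used here. The authors deposited raw counts per gene, and the 1 column of undetermined reads was not used in any test.

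Tests were made with edgeR 4.0.16 (R 4.3.3) by the quasi-likelihood method on the counts of all 40 libraries, with TMM factors, the default filter on low counts (11853 of 43430 genes kept), 1 mean per group, Benjamini-Hochberg adjustment over all tested genes and a threshold of 0.05. SE was the log2 fold change over the square root of F, and intervals of 95% were taken from it. Log2 CPM used a prior count of 2. Exon lengths came from GENCODE vM21. The code was tested on simulated counts. Libraries with the same number came from the same mouse: their deviations from group means had a mean correlation of 0.453 (60 pairs, 0.0995 to 0.769). Libraries of unlike mice had −0.107 (240 pairs, −0.553 to 0.345), which follows largely from the same-mouse value, since deviations within a group cancel out. Blocked values are therefore given where they change a call. Replicates differed by more than counting noise (chi-square per degree of freedom 9.32 to 75.3 over 80 pairs). Counting error is small at these depths for all 10 genes, and the spread between mice sets the precision.

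Alternatives were DESeq2 1.42.0, RLE and upper quartile factors, no filter, at least 10 counts in every library, the compared libraries alone, the mouse as a block and each mouse left out. Leaving out mice 496 and 503 together was chosen after seeing the data. The 10 genes and the lists were chosen with earlier results of these data known. Named in the text are all 10 genes, up to 4 genes per list with the highest mean level, other genes of a list called where no more than 3 of that list were, and the 5 genes most like the mean of the 10. Some items that this rule names are not reported here.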

Additional observations from a re-analysis of the deposited data

Results flagged for a closer look

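In 80 groups of 5 libraries (10 genes, 8 groups), 3 had a library whose gap to its neighbour, as a share of the group's range, was above Dixon's critical value, a rate that chance passes in about 1 of 20 groups. Nlrc5 was highest in mouse 503 among untreated NDI1 libraries, with a gap of 0.866 of the range. Tapbp was highest in mouse 496 among WT libraries with piericidin A, with a gap of 0.713, and in mouse 503 among NDI1 libraries with piericidin A and LPS, with a gap of 0.765. All 3 libraries belong to the mice that stood apart by their neutrophil markers, whose part in these values was not tested.

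The effect of piericidin A differed between the genotypes for 2 genes in the fit with the mouse as a replicate block. With LPS the difference, NDI1 minus WT, was 0.511 on the log2 scale for Tap2 and 0.54 for Nlrc5, and without LPS it was 0.696 for Nlrc5. None of the 3 was called without the block. With the block 1127 of the 11853 tested genes were called for this difference with LPS and 1062 without LPS, against 2 and 1 of the 10 genes.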

How the results depend on the processing

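The calls of all 10 genes as higher with LPS held in both genotypes under every alternative run, none of which left out scaling factors. Values of single genes were followed for the 35 results called in the main fit or in an alternative. Of these 626 recomputed values, 594 kept their side of the threshold, 19 lost their call and 13 gained one. No sign changed where either fit called the gene, and signs of values called in neither were not compared. The number of the 10 genes called for piericidin A in WT (1) was 2 with the replicate block, 0 without both mice that stood apart and 0 to 1 with each mouse left out. With LPS (2) it was 4 with the block, 0 in the compared libraries alone, 0 without both mice and 0 to 3 with each mouse left out (Nlrc5 gained its call without mouse 503). The block gave 2 for the genotype difference of the piericidin A effect with LPS, 1 without LPS and 2 for the change of the LPS effect, each 0 otherwise, and it changed no other call of the 10 genes in the comparisons within mice. For NDI1 against WT with piericidin A (0), upper quartile factors gave 1, DESeq2 gave 1 and leaving out each mouse gave 0 to 1 (Nlrc5 without mouse 447). With both agents (2), the compared libraries alone gave 0, leaving out both mice gave 0 and each mouse gave 1 to 3, where Psmb8 gained its call without mouse 447, Psmb10 lost its call without mouse 460 or 496 and Tap2 without mouse 520. The cause was not tested.

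Over all genes, the calls for piericidin A in WT were 1759, with 4049 under the block, 909 without both mice, 788 without mouse 496 and 888 without mouse 520. With LPS they were 1983, with 4090, 956, 845 and 841, and 891 in the compared libraries alone. The genotype difference with LPS had 116 calls, 1127 under the block, 231 with DESeq2, 72 without the filter, 49 in the compared libraries alone, 18 without both mice and 27 (without mouse 520) to 255 (without mouse 452) with each mouse left out, over 1.5 times off for each mouse but 453. That without LPS had 150, 1062 under the block, 294 with DESeq2, 73 without both mice and 63 (without 520) to 200 (without 452) with each mouse left out. The change of the LPS effect had 563, 2066 under the block, 354 in the compared libraries alone, 187 without both mice, and 297, 163 and 192 without mouse 449, 496 or 520. NDI1 against WT had 924 with piericidin A, 477 in the compared libraries alone, 458 without both mice, and 610 and 587 without mouse 461 or 520. With both agents it had 1421, 398 in the compared libraries alone, 574 without both mice, and 928, 845 and 746 without mouse 461, 496 or 520.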
